A study of Mus musculus with 2 samples.

Results

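The V1 sector of the vacuolar proton pump (V-ATPase) was represented by 9 genes of the 45578 in the table, Atp6v1a, Atp6v1b2, Atp6v1c1, Atp6v1d, Atp6v1e1, Atp6v1f, Atp6v1g1, Atp6v1g2 and Atp6v1h. They were chosen by name, and each symbol matched 1 gene. Ribosome-protected fragments had been sequenced from brain polysomes of 2 control mice at postnatal day 5 (P5), biological replicates 1 and 2 of a single group. Both animals had the genotype Smn+/-; SMN2tg/0, so they lacked 1 working copy of mouse Smn and carried a human SMN2 transgene, on the congenic FVB background. In ribosome profiling, nuclease removes mRNA that no ribosome covers and the remaining fragments (footprints) are counted, so a gene's count follows the number of ribosomes on its transcripts. No matched RNA was analysed here, and the values are footprint levels. In whole brain, fewer cells of a type and less RNA per cell cannot be told apart.

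The V-ATPase is a rotary motor that hydrolyses ATP and pumps protons into lysosomes, endosomes and synaptic vesicles. The cytosolic V1 sector hydrolyses the ATP, and the membrane-bound V0 sector carries the protons. In neurons the acid interior of the synaptic vesicle drives the loading of neurotransmitter. Within V1, subunits A and B alternate in a hexameric head around a rotor made of D and F. Pairs of E and G form the outer stalks that hold the head still, and C and H join these stalks to V0. The accepted copy numbers are 3 each for A, B, E and G and 1 each for C, D, F and H. Ribosomes on a coding sequence, taken per unit of its length, approximate the rate at which a protein is made if all mRNAs are elongated at the same speed, which was not measured here.

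The libraries held 1866831 footprints (replicate 1) and 5261878 (replicate 2). Markers of brain cells had footprints throughout. The 5 neuronal markers summed to 4036 and 3323 CPM (counts scaled to a library of 1000000) in replicates 1 and 2, and the 5 astrocyte markers to 1401 and 1476 CPM. The 3 oligodendrocyte markers summed to 297 and 510 CPM, the 5 microglial markers to 202 and 217 CPM and the 3 endothelial markers to 197 and 152 CPM. Alb, the serum albumin gene of liver, and Foxi1, a transcription factor of kidney intercalated cells, had no footprint in either library. Of the other 4 genes listed for tissues outside the brain, Acta1, the skeletal muscle actin, had 140 and 264 footprints, and its near-identical relatives make that count uncertain. Ctsk, an osteoclast protease, had 15 and 50, Apoa1, a liver apolipoprotein, 1 and 6, and Ckm, the muscle creatine kinase, 3 and 4. Levels below are densities, the footprints per kilobase of the gene's longest coding sequence per 1000000 footprints of the library. The footprints counted are those of all annotated transcripts of the gene, and were not limited to the coding sequence. Intervals are Clopper-Pearson 95% intervals and cover counting error only, and PCR copies are not independent molecules.

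All 9 V1 genes were well covered. The lowest count was that of Atp6v1g1, with 130 and 337 footprints, and the highest that of Atp6v1a, with 845 and 2418. Together they took 0.192% of the footprints in replicate 1 (interval 0.186 to 0.198) and 0.181% in replicate 2 (0.178 to 0.185). Over the 13317 coding genes whose counts averaged 10 or more, the median density was 22.0 in replicate 1 and 24.6 in replicate 2. Atp6v1c1 stood at percentile 82.4 of these genes by mean density, and the other 8 stood between percentile 90.9 (Atp6v1d) and 97.8 (Atp6v1g2). These ranks are over genes of all coding lengths, and shorter genes had higher densities. Divided by the median of genes of like coding length (classes given below), the members ranged from 1.88 (Atp6v1g1) to 11.7 (Atp6v1b2).

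The head subunits had nearly equal footprint densities when all transcripts of a gene were summed. Atp6v1a (ENSMUSG00000052459), which encodes the catalytic subunit A, had a density of 244 (interval 228 to 261) in replicate 1 and 248 (238 to 258) in replicate 2, and averaged 246 ± 2.63 (SD, n = 2). Atp6v1b2 (ENSMUSG00000006273), the brain form of the non-catalytic nucleotide-binding subunit B, had 263 (245 to 282) and 243 (233 to 254), with a mean of 253 ± 13.8. The replicates of these genes overlapped and took opposite orders. The ratio of A to B was 0.928 (0.841 to 1.03) in replicate 1 and 1.02 (0.959 to 1.08) in replicate 2, where equal copies would give 1. The equality depended on how annotated transcripts were counted. When only transcripts annotated as protein coding were used, A had 186 and 190, and B had 112 and 106, so B was below A. That setting keeps 76.5% of the footprints of Atp6v1a and 43.1% of those of Atp6v1b2. The direction turned in other settings. B per copy was at 1.59 and 1.43 of A with the highest transcript of each gene, and at 1.42 and 1.29 when counts were divided by transcript length. The highest transcript keeps 28.8% and 30.1% of the footprints of Atp6v1a, and 42.6% and 43.7% of those of Atp6v1b2. Footprints on the other transcripts are dropped by construction.

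**Figure D1:**
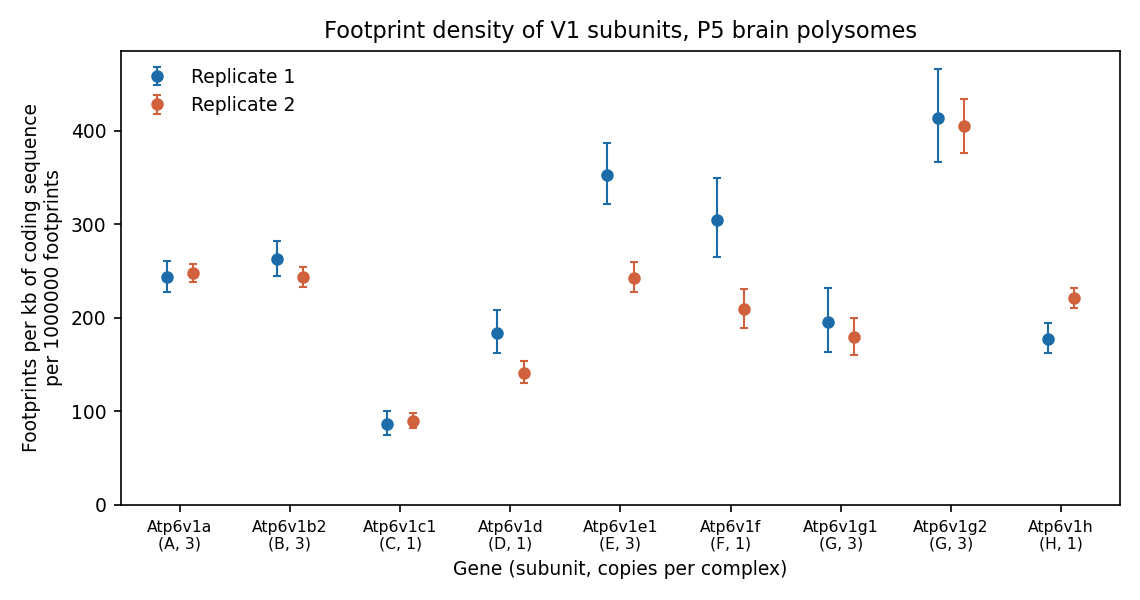
Footprint density of the 9 V1 genes (y axis, footprints per kilobase of coding sequence per 1000000 footprints) in replicate 1 (blue) and replicate 2 (orange). Points are single libraries and bars are Clopper-Pearson 95% intervals for counting error. Atp6v1c1 is lowest at 86.7 and 90.1, Atp6v1g2 is highest at 414 and 405, and the intervals of Atp6v1d, Atp6v1e1, Atp6v1f and Atp6v1h do not overlap between the libraries.

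The rotor genes differed from each other and between the libraries. Atp6v1d (ENSMUSG00000021114), the long helical shaft of the rotor, had a density of 184 (interval 162 to 208) in replicate 1 and 142 (130 to 154) in replicate 2. Atp6v1f (ENSMUSG00000004285), a small subunit bound to that shaft, had 305 (265 to 350) and 210 (189 to 231). Both were lower in replicate 2, with no overlap of the counting intervals. D over F was 0.604 (0.501 to 0.730) in replicate 1 and 0.675 (0.593 to 0.770) in replicate 2, where the single copy of each in the complex would give 1. Their coding lengths differ, at 744 and 360 nucleotides, and the order depended on this. Divided by the median of genes of like coding length, D was at 4.39 and 3.17 and F at 3.03 and 2.12. D was then above F in both libraries.

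The stalk subunits E and G are bound to each other as pairs in the complex. Atp6v1e1 (ENSMUSG00000019210) had a density of 353 (321 to 387) in replicate 1 and 243 (227 to 260) in replicate 2. Relative to A, it was at 1.45 (1.29 to 1.62) in replicate 1 and at 0.981 (0.907 to 1.06) in replicate 2, so 1 library had E above A and the other had them level. Subunit G came from a pair of genes, Atp6v1g1 (ENSMUSG00000039105), which is widely expressed, and Atp6v1g2 (ENSMUSG00000024403), known as the neuronal form. Atp6v1g1 had a density of 195 (163 to 232) and 179 (161 to 200), and Atp6v1g2 had 414 (367 to 466) and 405 (376 to 434). The longest coding sequence of both genes is 357 nucleotides. Atp6v1g2 exceeded Atp6v1g1 by 2.12-fold (1.72 to 2.64) in replicate 1 and 2.26-fold (1.98 to 2.57) in replicate 2. Atp6v1g1 thus supplied 31.4% ± 0.919 of the G density (SD, n = 2).

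The order of the G isoforms rested on the sum over transcripts. Atp6v1g1 has 1 annotated transcript and Atp6v1g2 has 6. With protein-coding transcripts alone the share of Atp6v1g1 was 45.4%, and with the single highest transcript of each gene it was 62.0%, so the order turned. In that last setting fragments shared among the transcripts of Atp6v1g2 are dropped by construction.

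The genes of the subunits that link the stalks to V0 stood apart from each other. Atp6v1c1 (ENSMUSG00000022295), the subunit that leaves the complex when V1 and V0 come apart, had the lowest density of the 9, at 86.7 (74.7 to 100.1) and 90.1 (82.7 to 98.04). Its mean was 88.4 ± 2.43 (SD, n = 2). It was at 0.355 (0.301 to 0.417) of A in replicate 1 and 0.364 (0.331 to 0.399) in replicate 2, where 1 copy against 3 would give 0.333. Atp6v1h (ENSMUSG00000033793), which is needed for activity and keeps free V1 from hydrolysing ATP, had 178 (162 to 194) in replicate 1 and 221 (211 to 232) in replicate 2. It was the 1 member with a higher density in replicate 2 beyond the counting intervals. C over H was 0.488 (0.410 to 0.579) and 0.407 (0.369 to 0.449), although each is present once in the complex.

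By mean density the order from the highest was Atp6v1g2, Atp6v1e1, Atp6v1f, Atp6v1b2, Atp6v1a, Atp6v1h, Atp6v1g1, Atp6v1d and Atp6v1c1. The ranges of the replicates overlapped for all neighbours in this order except Atp6v1g2 and Atp6v1e1, Atp6v1a and Atp6v1h, and Atp6v1d and Atp6v1c1.

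The densities were then set against the copy numbers, with Atp6v1g1 and Atp6v1g2 added for G. In replicate 1, subunits present in 3 copies ranged from 244 (A) to 609 (G), and those present once from 86.7 (C) to 305 (F). These ranges overlapped, because F exceeded A and B. In replicate 2 they did not overlap, at 243 (E) to 584 (G) against 90.1 (C) to 221 (H). The median of the 3-copy subunits was 1.70 times that of the 1-copy subunits in replicate 1 and 1.40 times in replicate 2, and the average was 1.55 ± 0.214 (SD, n = 2). Synthesis in exact proportion to the complex would give 3.

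Dividing each density by its copy number showed which subunits departed. A had 81.4 per copy in replicate 1 and 82.6 in replicate 2, B had 87.7 and 81.1, and C had 86.7 and 90.1. These values lay between 81.1 and 90.1 in both libraries. E had 118 per copy in replicate 1 and 81.0 in replicate 2, so it was level with them in replicate 2 alone. The other subunits were above this range in both libraries. D had 184 and 142 per copy, G had 203 and 195, H had 178 and 221, and F had 305 and 210. Relative to A per copy, D was at 2.26 and 1.71, G at 2.50 and 2.36, H at 2.19 and 2.68, and F at 3.75 and 2.54. The spread from the lowest to the highest subunit per copy was 3.75-fold in replicate 1 and 2.73-fold in replicate 2.

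Coding length moved with these values. Across all tested coding genes, those with coding sequences above 200 and up to 500 nucleotides (1131 genes) had a median density of 101 in replicate 1 and 99.1 in replicate 2. Genes of up to 1000 nucleotides (2938 genes) had 42.01 and 44.6, genes of up to 2000 nucleotides (5063 genes) 20.6 and 22.8, and longer genes (4143 genes) 11.4 and 12.97. Atp6v1f, at 360 nucleotides, and both G genes fall in the shortest of these classes. Atp6v1d (744) and Atp6v1e1 (681) fall in the next, and Atp6v1a (1854), Atp6v1b2 (1536), Atp6v1c1 (1149) and Atp6v1h (1452) share the class of up to 2000 nucleotides.

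When each density was divided by the median of its length class, a setting added once the values had been seen, the excess of D, F and G over A was no longer present. Relative to A per copy, D was at 1.11 and 0.876, F at 0.768 and 0.584, and G at 0.511 and 0.542 in replicates 1 and 2. E was at 0.709 and 0.501. The values of H, B and C relative to A cannot change in this setting, because the 4 genes share a class. The ratio of 3-copy to 1-copy medians was 2.34 in this setting. With the other ways of counting and dividing by length, H stayed above A per copy in both libraries, with values from 1.67 to 2.92. C lay at 3.71 and 3.63 of A with the single highest transcript, where only part of the count of A, which has 6 transcripts, is kept. It was within 1.5 times of A in the other settings. When counts were divided by transcript length, G was at 1.38 and 1.31 of A per copy. D was then at 2.10 and 1.59, and F at 3.38 and 2.29.

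**Figure D2:**
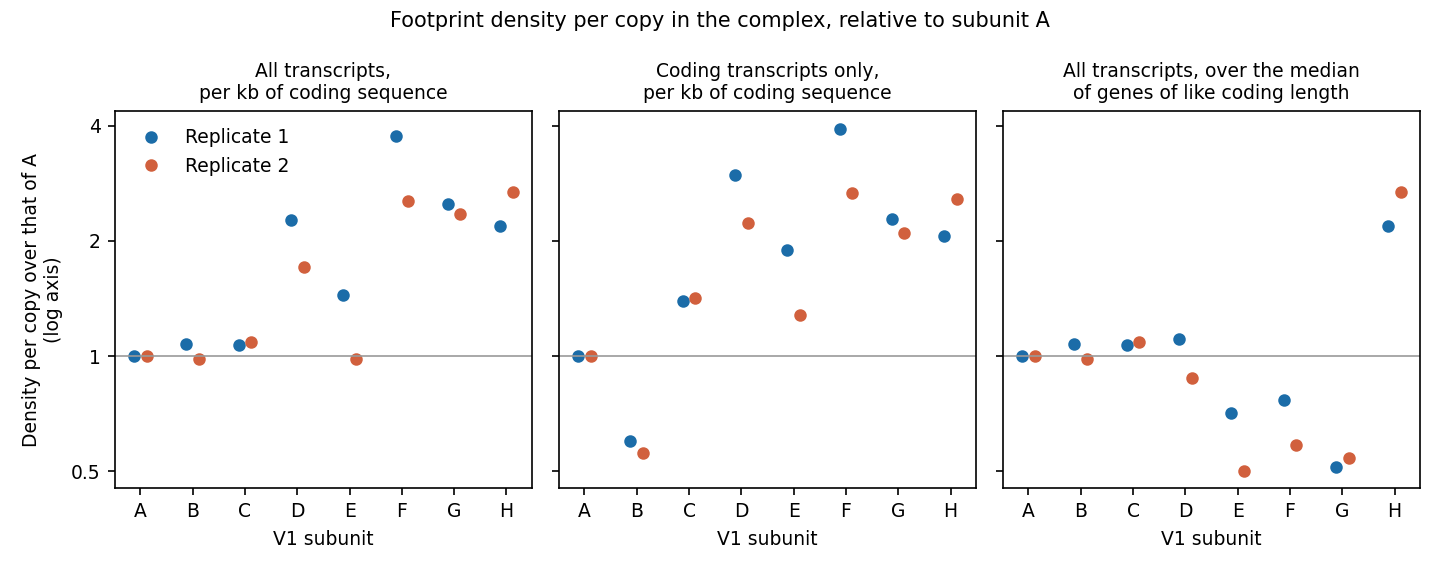
Density per copy in the complex, divided by that of subunit A in the same library (log axis), for the 8 subunit positions in replicate 1 (blue) and replicate 2 (orange). The panels show all transcripts summed, protein-coding transcripts alone, and densities divided by the median of genes of like coding length. H lies above 2 in the left and middle panels and is at its left-panel value in the right by construction. F falls from 3.75 and 2.54 in the left panel to 0.768 and 0.584 in the right.

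The 9 genes had 33 annotated transcripts, of which 20 were protein coding, 12 retained introns and 1 a processed transcript, and all 33 had footprints in both libraries. Atp6v1c1, Atp6v1d, Atp6v1e1 and Atp6v1g1 had 1 transcript each, so their values do not depend on the choice of transcript. Coding transcripts held 76.5% ± 0.301 (SD, n = 2) of the footprints of Atp6v1a, 80.3% ± 0.427 for Atp6v1f and 72.8% ± 1.43 for Atp6v1h. They held 54.9% ± 0.773 for Atp6v1g2 and 43.1% ± 0.776 for Atp6v1b2, which had 1 coding transcript and 5 retained introns. These shares differed little between the libraries.

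The transcripts of a gene share exons, and a fragment from a shared exon can be placed on any of them. Atp6v1a-001 and Atp6v1a-002 carry coding sequences of the same length, 1854 nucleotides, and had 253 and 243 footprints in replicate 1 and 694 and 727 in replicate 2. Atp6v1a-003, a retained intron, had 200 and 562. Per kilobase of transcript these were 59.8, 62.4 and 64.7 in replicate 1, so the retained intron was covered as densely as the coding forms. In Atp6v1h the retained introns were covered more thinly. Atp6v1h-004, of 4829 nucleotides, had 18.8 footprints per kilobase in replicate 1 and 61.9 in replicate 2, against 50.3 and 181 for the coding Atp6v1h-001. Coding forms of Atp6v1h with coding sequences of 1452, 1398 and 1326 nucleotides had 103, 102 and 94 footprints in replicate 1 and 371, 399 and 314 in replicate 2. No single annotated transcript of Atp6v1h held most of its footprints. Fragments of shared exons do not show which of these forms was translated.

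**Figure D3:**
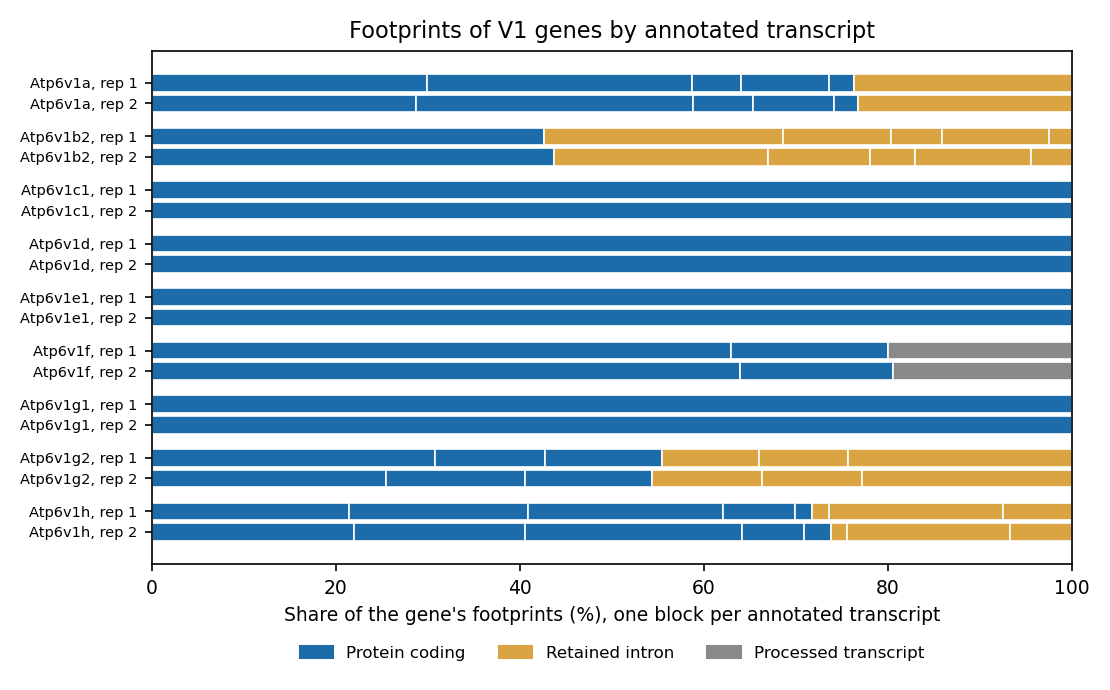
Share of each V1 gene's footprints (x axis, percent) on its annotated transcripts, with 1 block per transcript and 1 bar per replicate. Blue marks protein-coding transcripts, yellow retained introns and grey a processed transcript. Coding transcripts hold all footprints of Atp6v1c1, Atp6v1d, Atp6v1e1 and Atp6v1g1, but 43.1% of those of Atp6v1b2.

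Genes that overlap a member in a RefSeq table of names (assembly GRCm38.p6) were Slc18a1 for Atp6v1b2, Gm19245 for Atp6v1e1, Gm38592 for Atp6v1g1 and Nfkbil1 for Atp6v1g2. The use of strand in counting is not given in the sources used here, so the counts of these 4 members are uncertain to that extent. Slc18a1 had 1 footprint in each library. The counts of Gm19245, Gm38592 and Nfkbil1 are not given here. Processed copies of the V1 genes could also take some of their fragments, and this was not tested.

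The replicates were compared for each gene by an exact binomial test (two-sided), scaled by TMM (trimmed mean of M values) and adjusted by the Benjamini-Hochberg method over 16427 genes. It compares 2 libraries and not 2 conditions, and it covers counting noise alone. Of the 9 members, 4 were called lower in replicate 2 and none was called higher. Of all tested genes, 11.5% were called lower, 5.95% higher and 17.4% in either direction. Atp6v1f had a log2 ratio of -0.66 (adjusted p = 4.27e-06, exact binomial test), Atp6v1e1 also -0.66 (8.23e-13), Atp6v1d -0.51 (0.000102) and Atp6v1b2 -0.24 (0.00184). The 5 that did not pass were Atp6v1g1 at -0.25, Atp6v1g2 at -0.16, Atp6v1a at -0.10, Atp6v1c1 at -0.07 and Atp6v1h at 0.19 (adjusted p = 0.0594, exact binomial test). The median over the 9 members was -0.24, against 0.01 over all tested genes.

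The calls of Atp6v1b2 and Atp6v1h depended on the setting. With library totals, which raise every log2 ratio by 0.13, Atp6v1b2 was at -0.11 (adjusted p = 0.220, exact binomial test) and Atp6v1h was called at 0.32 (0.000294), while Atp6v1d, Atp6v1e1 and Atp6v1f stayed called. Atp6v1b2 was also lost with coding transcripts alone and with the highest transcript per gene. Atp6v1h was also called higher with coding transcripts alone, at 0.26 (adjusted p = 0.0201, exact binomial test), and when genes averaging 50 or more footprints were tested (0.0429). With edgeR's exact test at 1 dispersion for all genes, estimated from the same 2 libraries, none of the 9 was called and none had an unadjusted p under 0.05. That test called 11 genes of 16427, and 719 had an unadjusted p under 0.05. Its dispersion takes in the typical difference between the 2 libraries, so it cannot show that the members do not differ.

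Footprint density moved with the replicate ratio across all genes. In the 10% of coding genes with the highest density, from 150.5 upward, the median log2 ratio was -0.27 and 58.3% were called. That group held 8 of the 9 members, so 4 calls among 9 is not above the share in genes of like density. In the next 10%, which held Atp6v1c1, the median was -0.11 and 35.2% were called. Of the 5 neuronal markers 3 (Tubb3, Syt1 and Snap25) were called lower in replicate 2, and of the 3 oligodendrocyte markers 2 (Mbp and Mag) were called higher. All 5 neuronal markers lie in the 10% of highest density, where 58.3% were called, so their count is near that share. Mbp lies there too, and Mag in a 10% of which 21.8% were called. The neuronal markers Rbfox3 and Map2 were at -0.05 and -0.06 and did not pass. None of the 5 astrocyte markers was called, 1 of 5 microglial markers was called higher and 1 lower, and 1 of 3 endothelial markers was called lower, where 17.4% of all tested genes were called. The replicate ratio also moved with coding length. Its median was -0.17 for coding sequences above 200 and up to 500 nucleotides, and -0.06 for those up to 1000. It was -0.004 for those up to 2000 nucleotides and 0.07 for longer ones. The part of density, of coding length and of cell content in the V1 values was not tested.

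**Figure D4:**
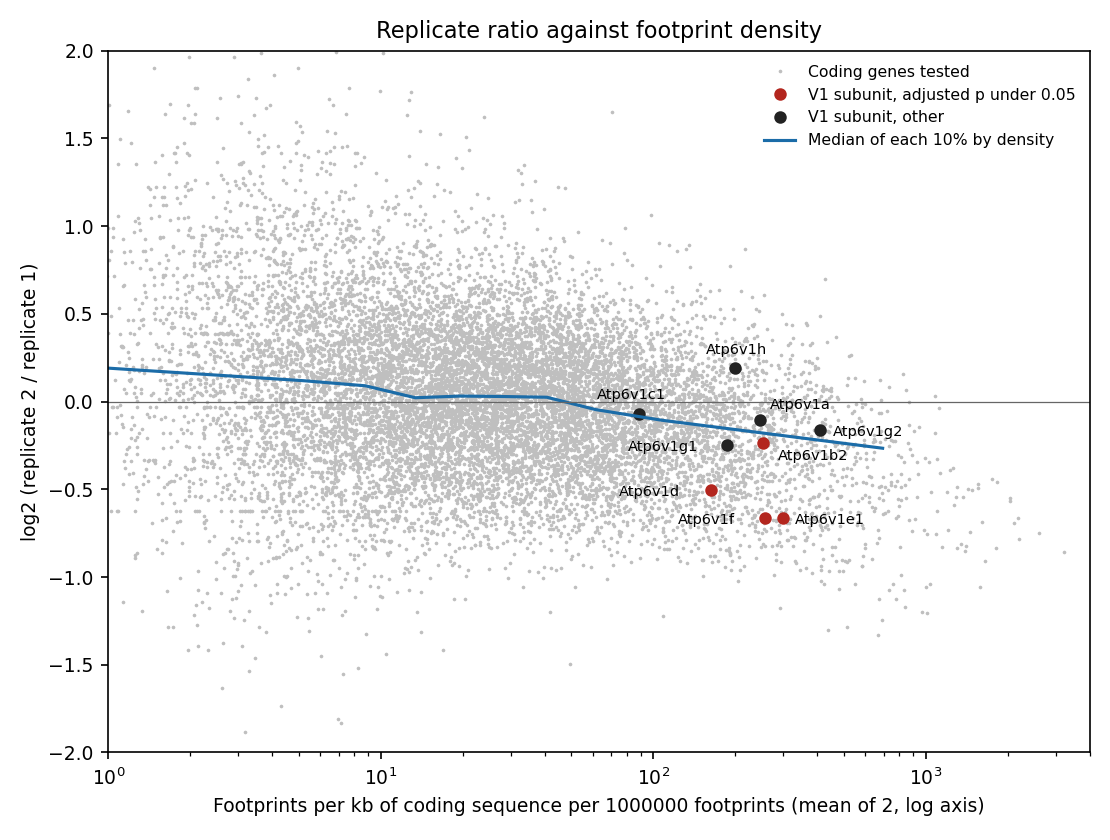
Log2 ratio of replicate 2 over replicate 1 (y axis, TMM scaling) against mean footprint density (x axis, log scale) for coding genes whose counts averaged 10 or more (grey), with the median of each 10% of genes by density (blue line). V1 genes are marked in red where the exact binomial test gave an adjusted p under 0.05 and in black otherwise. Genes with ratios beyond 2 in size or densities under 1 are outside the axes. Atp6v1e1 and Atp6v1f lie lowest at -0.66 and Atp6v1h highest at 0.19.

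The tissue-restricted relatives of the V1 genes had almost no footprints. Atp6v1b1, the kidney and inner ear form of B, had 1 footprint in replicate 1 and 0 in replicate 2. Atp6v1c2 had 2 and 9, and Atp6v1e2, a testis form of E, had 2 and 1. Atp6v1g3, a kidney form of G, had 0 in both, and with a floor of 3 counts this leaves room for 1.61 CPM (replicate 1) or 0.570 CPM (replicate 2). None of these 4 reached a mean count of 10, so none was tested. The complex was therefore represented by 1 gene for each subunit except G.

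The V0 sector was read from a list of 12 genes, 10 of which reached a mean count of 10. Atp6v0c, which encodes the main proteolipid of the proton-carrying ring, had the highest density at 1473 (1394 to 1556) in replicate 1 and 1102 (1061 to 1144) in replicate 2. The ring holds many copies of it. Its coding sequence is short, at 468 nucleotides, and shorter genes had higher densities. The median of its length class was 101 in replicate 1 and 99.1 in replicate 2. That of the class of Atp6v0d1 (1056 nucleotides) was 20.6 and 22.8. The parts of copy number and of coding length in these values were not tested. Atp6v0b, a relative of c in the same ring, had 361 (327 to 397) and 340 (321 to 361). Atp6v0d1, the single-copy stalk base, had 243 (222 to 266) and 208 (196 to 220). Atp6v0a1, the neuronal form of the subunit that forms the proton half-channels, had 204 (191 to 217) and 242 (234 to 250), and its ratio to Atp6v0d1 was 0.840 and 1.17. Atp6v0e2, with a coding sequence of 246 nucleotides, had 716 (641 to 798) and 379 (347 to 414).

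The other forms of the a subunit were far below Atp6v0a1. Atp6v0a2 had a mean density of 15.3 ± 0.0649 (SD, n = 2) and Tcirg1, the osteoclast form, 4.06 ± 0.595. Atp6v0a4 and Atp6v0d2, both abundant in kidney, had 4 and 13 and 0 and 3 footprints. The accessory subunit genes Atp6ap1 and Atp6ap2 had 336 ± 34.5 and 182 ± 10.5. Of the 10 tested genes of this list, 4 were called lower in replicate 2 and none higher, with a median log2 ratio of -0.21. The called genes were Atp6v0c at -0.54, Atp6v0d1 at -0.35, Atp6v0e2 at -1.04 and Atp6ap2 at -0.24. Over all tested genes 11.5% were called lower in replicate 2. All 4 lie in the 10% of coding genes with the highest density, of which 58.3% were called at a median of -0.27. Atp6v0a1, Atp6v0b and Atp6ap1 lie there too and were not called, so this count does not set V0 apart.

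The density of the V1 head per copy, taken as A plus B over their 6 places, was 0.348 of that of Atp6v0d1 in replicate 1 and 0.395 in replicate 2, and averaged 0.371 ± 0.0330 (SD, n = 2). A complete pump holds 1 copy of d. The single-copy V1 subunits fell on both sides of Atp6v0d1. C and H share its coding length class, while D and F are of shorter classes, where densities were higher. Against 243 in replicate 1, C was at 86.7, D at 184, H at 178 and F at 305. Against 208 in replicate 2, C was at 90.1, D at 142, H at 221 and F at 210. With the single highest transcript of each gene the ratio of the head to Atp6v0d1 was 0.164. That setting keeps only part of the counts of A and B, which have 6 transcripts each, against 2 for Atp6v0d1.

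**Figure D5:**
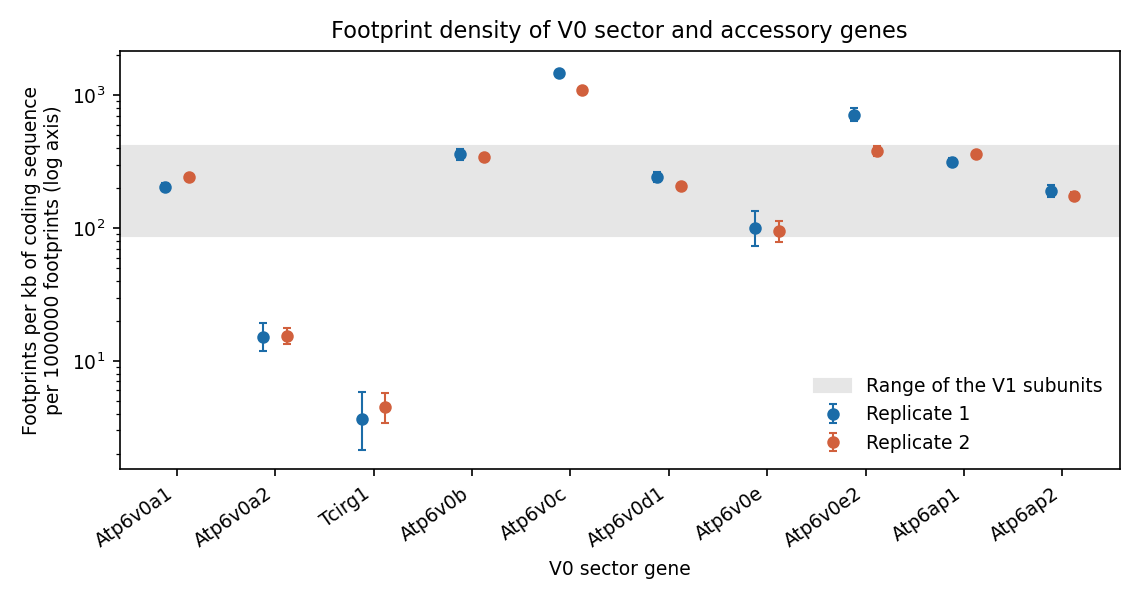
Footprint density of the 10 V0 sector and accessory genes averaging 10 or more footprints (log axis, footprints per kilobase of coding sequence per 1000000 footprints), in replicate 1 (blue) and replicate 2 (orange), with Clopper-Pearson 95% intervals. The grey band spans the V1 genes, from 86.7 to 414. Atp6v0c lies above the band at 1473 and 1102, and Atp6v0a2 and Tcirg1 lie below it.

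Of 11 genes that assemble or regulate the pump, 10 were tested, and 8 of these had mean densities below those of all V1 genes. In replicate 2, Dmxl1, Dmxl2 and Oxr1 were called higher, at log2 ratios of 0.60, 0.34 and 0.46, and Wdr7 lower, at -0.29; these genes are named because they passed the test. Over all tested genes 5.95% were called higher and 11.5% lower. Oxr1 and Wdr7 lie in the 10% of coding genes by density where 21.8% were called. Dmxl2 lies where 12.4% were called, and Dmxl1 where 5.33% were. All of these genes have coding sequences over 2000 nucleotides, a class with a median log2 ratio of 0.07. Such a small count does not set these genes apart. Rogdi, a subunit of the complex that joins V1 to V0, had a density of 115 ± 0.656 (SD, n = 2), above that of Atp6v1c1. Vma21, a chaperone of V0 assembly in the endoplasmic reticulum, had 108 ± 32.4. Tmem199 and Ccdc115, which act in V0 assembly, had 72.1 ± 8.04 and 56.5 ± 5.18. Tldc2 had no footprint in either library.

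Transporters that use the proton gradient to load synaptic vesicles were represented by 9 genes, of which 7 were tested and 2, Slc32a1 and Slc17a6, were called lower in replicate 2. Over all tested genes 11.5% were called lower and 17.4% in either direction. Both called genes lie in the 10% of coding genes by density where 35.2% were called. The other 5 tested genes lie in groups of lower density, where 5.33% to 26.1% were called. No reading is drawn from a count this small. Slc32a1, which loads GABA and glycine, had a density of 142 (129 to 157) in replicate 1 and 93.3 (86.9 to 100.1) in replicate 2, with a log2 ratio of -0.73 (adjusted p = 2.89e-14, exact binomial test). The glutamate transporters Slc17a6 and Slc17a7 had 103 ± 18.2 and 68.2 ± 4.34 (SD, n = 2). The monoamine transporter Slc18a2 had 19.5 ± 3.16. The mean densities of Slc32a1 (118) and Slc17a6 lay between those of Atp6v1c1 and Atp6v1d.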

How the data were processed

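Footprints from polysomes of 2 control P5 mouse brains (1 group, n = 2) were analysed from a table of whole-number counts per transcript that the authors deposited, with 1 column per replicate and no normalization. Per the submitters' processing notes, Trimmomatic 0.36, Bowtie2 2.2.6 and SAMtools were used with GRCm38.p4. Annotation release, strand, duplicates and fragments with several matches are not given in the sources used here. Per the labels' protocols, fragments of 25 to 35 nucleotides were selected. The members and lists were chosen with earlier results of these data known. All 9 members are named, with up to 4 genes of each V-ATPase and transporter list by mean density. Further V0, regulator and marker genes were named after their values were seen.

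Counts of a gene's transcripts were summed, since 49 pairs of transcripts of 1 gene with identical lengths differed as independent counts would (mean squared difference over sum 1.07, where 1 is the value for independent counts and 0 for fragments counted on both). Density divides the count by the longest coding sequence and the library total. TMM factors (edgeR 4.0.16) were 0.957 and 1.04. Log2 ratios add 0.5 CPM. Genes whose counts averaged 10 or more were tested by exact binomial tests (scipy 1.17.1) and called at an adjusted p under 0.05. A single group gives no contrast, so edgeR's quasi-likelihood test was not run. Alternatives covered transcripts, lengths, scaling (DESeq2 1.42.0 size factors, library totals), filters and edgeR's exact test. Protein sequences were not used here. One marker of the cell type lists was left out of its list and is not reported here.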

Additional observations from a re-analysis of the deposited data

How the results depend on the processing

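Leaving out a replicate gave a median V1 density of 221 to 244, a 3-copy to 1-copy ratio of 1.40 to 1.70, an Atp6v1g1 share of 30.7% to 32.0%, a V1 share of footprints of 0.181% to 0.192% and a V1 to V0 ratio of 0.348 to 0.395. The median V1 density, 233 when all transcripts were summed, was 178 with protein-coding transcripts alone, 117 with the highest transcript, 253 with count-weighted coding length, 130 with transcript length, 252 with 60 nucleotides taken off and 4.24 times the median of the length class. In the first 2 of these settings footprints are dropped by construction. The 3-copy to 1-copy ratio was 1.82 with transcript length and 2.34 over length classes, and within 1 SD of 1.55 in the other settings. The Atp6v1g1 share was 45.4% with coding transcripts, 62.0% with the highest transcript and 28.2% with weighted coding length. The V1 share of footprints was 0.138% with coding transcripts and 0.0959% with the highest transcript. The V1 to V0 ratio was 0.269 with coding transcripts, 0.164 with the highest transcript, 0.406 with weighted coding length and 0.332 with transcript length.

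The exact binomial test called 2861 genes, 1444 with the highest transcript and 11 with edgeR's exact test, which called 0 of the 9 members. The dispersion of edgeR's test takes in the difference between the libraries, so no reading is drawn from its calls. With library totals 60.7% of called genes were higher in replicate 2, in place of 34.2%. No paired analysis was possible because there is 1 group. Depth limits the 4 tissue-restricted V1 relatives.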
